A study of Mus musculus with 4 samples.

Results

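Chemokine ligands are secreted proteins that draw leukocytes along a gradient, and 10 of their genes were followed here through single-cell RNA sequencing of fine-needle aspiration (FNA) biopsies of mouse liver. The members were Ccl2, Ccl3, Ccl4, Ccl5, Ccl6, Ccl7, Ccl9, Ccl24, Cxcl2 and Cxcl13, taken by gene symbol, and all 10 were found among the 33696 genes counted. They were read in macrophages, classical monocytes, patrolling monocytes, dendritic cells, T cells and NK cells, which were gated on the unique molecular identifiers (UMIs, each standing for 1 captured transcript) of marker genes other than these ligands.

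Male C57BL/6J mice, 7 weeks old at the start, received the FPC diet (Fructose, Palmitate, Cholesterol, Trans-Fat), a mouse model of metabolic dysfunction-associated steatohepatitis (MASH). P-LC24 had 0.05% cholesterol for 24 weeks, P-HC24 had 1.25% cholesterol for 24 weeks, I-LC32 had 0.05% for 32 weeks, and I-HC32 had 1.25% for 24 weeks and then 0.05% for 8 weeks. All 4 groups therefore carried the FPC diet, and no group on an ordinary diet was analysed here. Each group was 1 library, made from the pooled biopsies of 4 lobes in each of 3 mice, and the same 3 mice of each diet were sampled at both times.

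P-HC24 was compared with P-LC24 (Prog) and I-HC32 with I-LC32 (Int). P-HC24 and I-HC32 are called the HC libraries and the others the LC libraries, after the diet of the first 24 weeks, since both Int libraries were on 0.05% cholesterol when sampled. With 1 library per group there is no replicate, so no difference between diets was tested. Intervals below are 95% intervals for counting error alone, and they do not cover variation among mice, biopsies or cells. Where a few cells hold much of a ligand they are too narrow. With the top cell of each library left out, 13 of 56 ratios fell outside their interval. The libraries held 7035 barcodes in P-LC24 against 7946 in P-HC24, and 9828 in I-LC32 against 8389 in I-HC32. After filters and doublet removal, 4930, 6532, 6978 and 6919 cells remained in the same order, with 38423811, 63019212, 61571512 and 76924261 UMIs and medians of 6291, 7268.5, 6860 and 8534 UMIs per cell. Where 4 values stand in a row without names, they follow the order P-LC24, P-HC24, I-LC32, then I-HC32. Between 12 and 31 barcodes were shared by any pair of libraries.

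Chemokines of the CC and CXC families differ in the spacing of their first cysteines and act through G protein-coupled receptors on the responding cell. Ccl2 and Ccl7 act on Ccr2 and draw inflammatory monocytes, Cxcl2 acts on Cxcr2 and draws neutrophils, Cxcl13 acts on Cxcr5 and draws B cells and Ccl24 acts on Ccr3 and draws eosinophils. Ccl3, Ccl4 and Ccl5 draw T cells, NK cells and monocytes. In the liver, resident Kupffer cells, recruited monocytes and lymphocytes are all known sources of chemokines, and several of these genes respond within hours to NF-kB signalling.

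The genes lie in a few clusters. On chromosome 11 of GRCm39 with the GENCODE annotation, Ccl2 (chr11:81926397-81928279) and Ccl7 (chr11:81936532-81938351) start 10.1 kb apart on the plus strand. Ccl5 (chr11:83416602-83425942), Ccl9 (chr11:83463745-83473161), Ccl6 (chr11:83478708-83483913) and Ccl3 (chr11:83538670-83540191) lie on the minus strand, and Ccl4 (chr11:83553383-83555509) on the plus strand. Starts are those of the transcript that the annotation marks as Ensembl canonical, and for Ccl5 and Ccl9 they lie inside the gene span, which other transcripts extend. The starts of Ccl9 and Ccl6 are 14.4 kb apart, and those of Ccl3 and Ccl4 are 13.2 kb apart. On chromosome 5 lie Cxcl2 (chr5:91051730-91053797, plus strand), Cxcl13 (chr5:96104810-96108927, plus strand) and Ccl24 (chr5:135598668-135601905, minus strand).

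No motif searched in the sequence before the start was found in all 10 members. The 200 bases before the canonical start held a match to the NF-kB consensus on either strand in 3 of the 10 members, Ccl5, Ccl9 and Cxcl2, against 3.52% of 21770 promoters of the same length. The AP-1 motif TGANTCA, also on either strand, was in Ccl7 and Ccl9, against 4.93% of promoters. The letters TATAAA on the strand of the gene were in 5 members (Ccl5, Ccl7, Ccl9, Ccl24 and Cxcl13), against 6.75% of promoters. The 3 windows with the NF-kB consensus are shown because Cxcl2 led in macrophages and Ccl5 in T and NK cells. Ccl9 was included because it differed in opposite directions at the 2 times in macrophages. Capitals mark the matches to the NF-kB, AP-1 and TATAAA motifs, and each sequence runs 5′ to 3′ on the strand of the gene. The windows are chr5:91051530-91051729 on the plus strand for Cxcl2, and chr11:83469468-83469667 and chr11:83421346-83421545 on the minus strand for Ccl9 and Ccl5.
Cxcl2: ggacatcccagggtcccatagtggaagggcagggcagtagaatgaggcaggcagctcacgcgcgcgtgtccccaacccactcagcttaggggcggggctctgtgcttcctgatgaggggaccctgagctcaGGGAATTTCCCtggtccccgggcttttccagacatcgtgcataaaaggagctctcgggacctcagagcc
Ccl9: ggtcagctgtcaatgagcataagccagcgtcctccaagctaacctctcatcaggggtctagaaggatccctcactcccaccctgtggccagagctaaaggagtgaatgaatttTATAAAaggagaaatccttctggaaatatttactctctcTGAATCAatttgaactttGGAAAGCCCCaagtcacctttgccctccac
Ccl5: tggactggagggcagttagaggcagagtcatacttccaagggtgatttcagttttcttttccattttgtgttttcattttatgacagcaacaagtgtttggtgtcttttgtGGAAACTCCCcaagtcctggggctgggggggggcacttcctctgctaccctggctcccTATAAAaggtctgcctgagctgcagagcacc
In Cxcl2 there were 2 overlapping matches, 69 and 68 bases before the start. The match lay 30 bases before the start in Ccl9 and 89 in Ccl5. A match of letters is a description of the window, not a bound site.

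The number of macrophages differed between the libraries more than most ligand levels did within them. The macrophage gate took 57 cells in P-LC24 (1.16% of kept cells) against 440 in P-HC24 (6.74%), and 75 in I-LC32 (1.07%) against 613 in I-HC32 (8.86%), with medians of 25027, 21630, 22793 and 20757 UMIs per cell. Classical monocytes numbered 81, 85, 149 and 49, patrolling monocytes 62, 70, 31 and 35, dendritic cells 45, 34, 67 and 52, T cells 987, 1037, 1517 and 974, and NK cells 233, 91, 142 and 60 in the same order. Neutrophils numbered 111, 113, 30 and 20, too few in I-HC32 for an Int ratio. They were not among the classes chosen for comparison, so no Prog ratio was taken either. Neutrophil levels below are given as values only. Both HC libraries thus held several times more macrophages than the LC libraries, also at week 32, when all mice had received 0.05% cholesterol for at least 8 weeks.

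The macrophages carried the markers of large peritoneal macrophages and few UMIs of Clec4f, which defines mouse Kupffer cells. All 8 of 8 large peritoneal macrophage markers were detected, in at least 25% of the macrophages of every library, with Prg4 the most abundant. Their summed levels were 8503, 8687, 8178 and 11448 CPM, the UMIs of the genes scaled to the same total in every class and library. Gata6, the transcription factor that defines large peritoneal macrophages, was seen in 54.4%, 68.2%, 64.0% and 79.6% of these cells. The Kupffer cell list summed to 786, 996, 1107 and 1368 CPM, led by Cd5l, a gate gene. Timd4, another gate gene and found in both kinds, was seen in 8.77%, 43.9%, 24.0% and 60.0%. Clec4f had a UMI in 2 of 57 macrophages of P-LC24 and in none of the other libraries, which allows a share of cells with a UMI of up to 0.682% (P-HC24), 4.00% (I-LC32) or 0.489% (I-HC32). A cell without a UMI may still express the gene, so these shares do not limit the number of Kupffer cells. The label of the samples is liver, and these values are given because ligand levels with and without Gata6 differed, as described below; from which site the macrophages came was not tested.

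**Figure D1:**
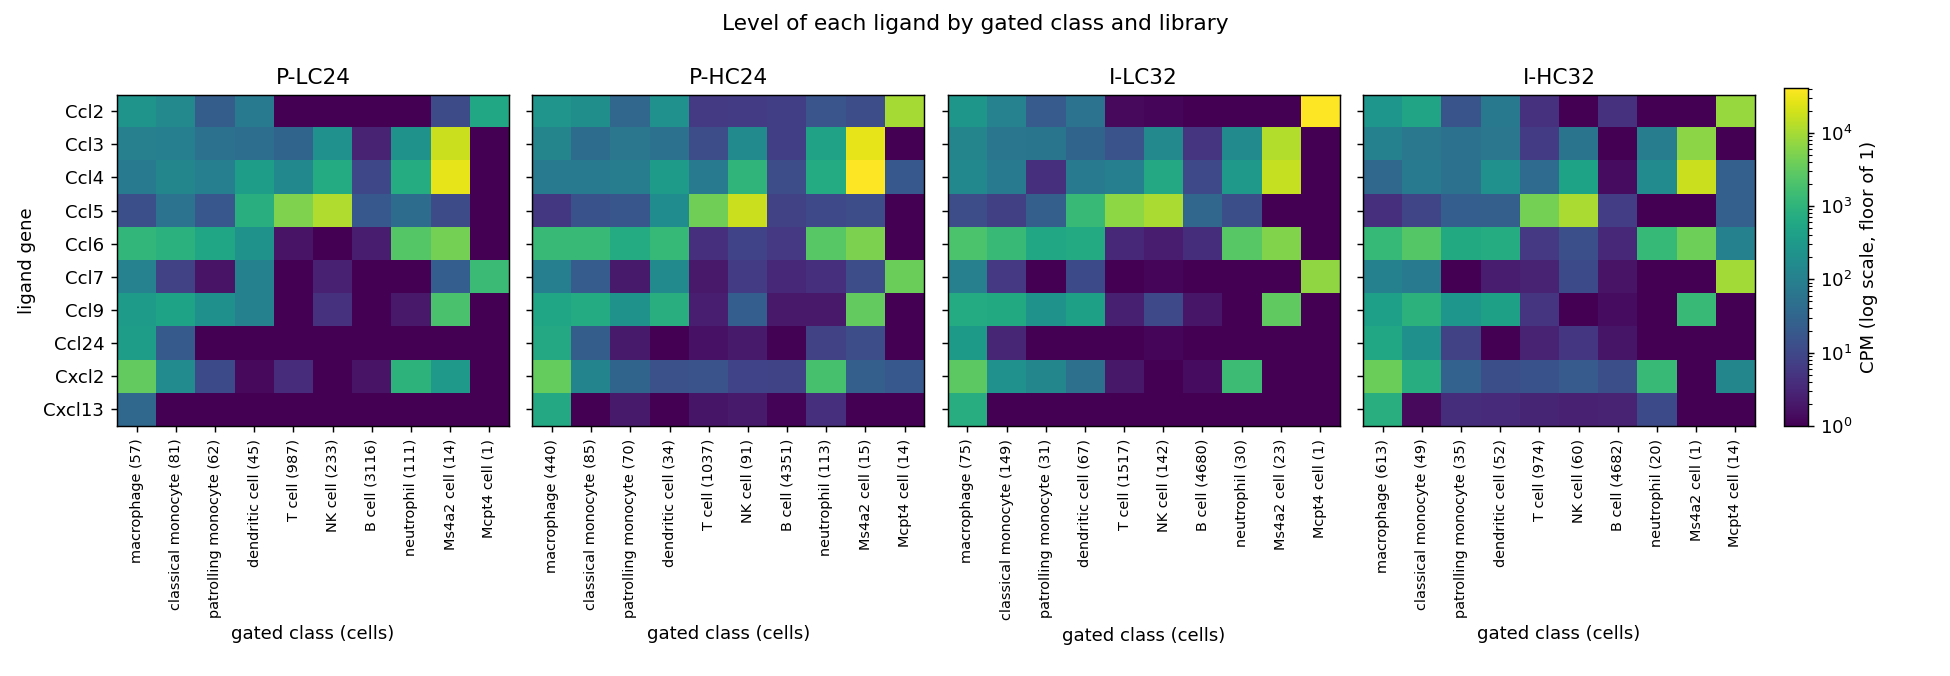
Level of the 10 ligands (rows) in each gated class and library (columns), in CPM of the summed UMIs on a log colour scale with a floor of 1 CPM. Cxcl2 and Ccl6 are bright in macrophages of all 4 libraries and Ccl5 in T and NK cells. Ccl3 and Ccl4 are bright in Ms4a2 cells, whose gate was redrawn after ungated cells high in both were seen.

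Each level is the CPM of the summed UMIs of a class in a library. Since the 3′ kit counts 1 tag per transcript, levels do not scale with gene length. Other differences between genes in how well their transcripts are counted were not tested, so a ranking of genes is one of counted UMIs. In macrophages Cxcl2 had the highest level of the 10 ligands in every library, followed by Ccl6, and Ccl5 had the lowest. In classical and patrolling monocytes Ccl6 led in every library and Ccl9 came next. In T and NK cells Ccl5 led in every library.

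A ratio was taken for genes found in 10% or more of the cells of 1 or both libraries, with 100 UMIs or more in the pair, and a ratio of at least 1.2-fold was counted. Of 60 pairs of ligand and class, 28 could be compared in Prog and 28 in Int. The ligands were not uniformly higher or lower in the HC libraries, as 13 pairs were higher and 7 lower in Prog, beside 17.1% and 42.3% of all pairs of gene and class, and 9 were higher and 8 lower in Int, beside 17.3% and 24.4%.

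In macrophages, 9 ligands were compared in each phase. In Prog 3 were higher and 0 lower, beside 16.2% of 7475 genes in the first direction and 46.8% in the second. In Int 2 were higher and 3 lower, beside 14.2% and 36.6% of 8357 genes. The median log2 ratio of the 9 ligands was 0.22 in Prog and -0.08 in Int, against -0.22 and -0.14 over all genes compared, so that a ratio near 0 lay above the middle gene.

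In classical monocytes 6 ligands were compared in Prog, 3 higher and 3 lower, beside 20.8% and 33.3% of genes. In Int 7 were compared, 5 higher and 0 lower, beside 16.8% and 30.5% of genes. Patrolling monocytes gave only Ccl6 and Ccl9, with 1 higher and 0 lower in Prog beside 16.7% and 28.2% of genes, and 0 in either direction in Int beside 24.9% and 17.7%. In dendritic cells 4 of 6 were higher and 1 lower in Prog, beside 25.5% and 45.0% of genes, and 2 of 5 were higher and 1 lower in Int, beside 20.9% and 20%. In T cells 0 of 2 were higher and 2 lower in Prog, beside 11.5% and 46.5% of genes, and 0 of 2 were higher and 2 lower in Int, beside 17.9% and 10.1%. In NK cells 2 of 3 were higher and 1 lower in Prog, beside 20.7% and 40.6% of genes, and 0 of 3 were higher and 2 lower in Int, beside 19.4% and 19.8%. With so few ligands in a class, these counts are a description, and no share of them was tested.

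**Figure D2:**
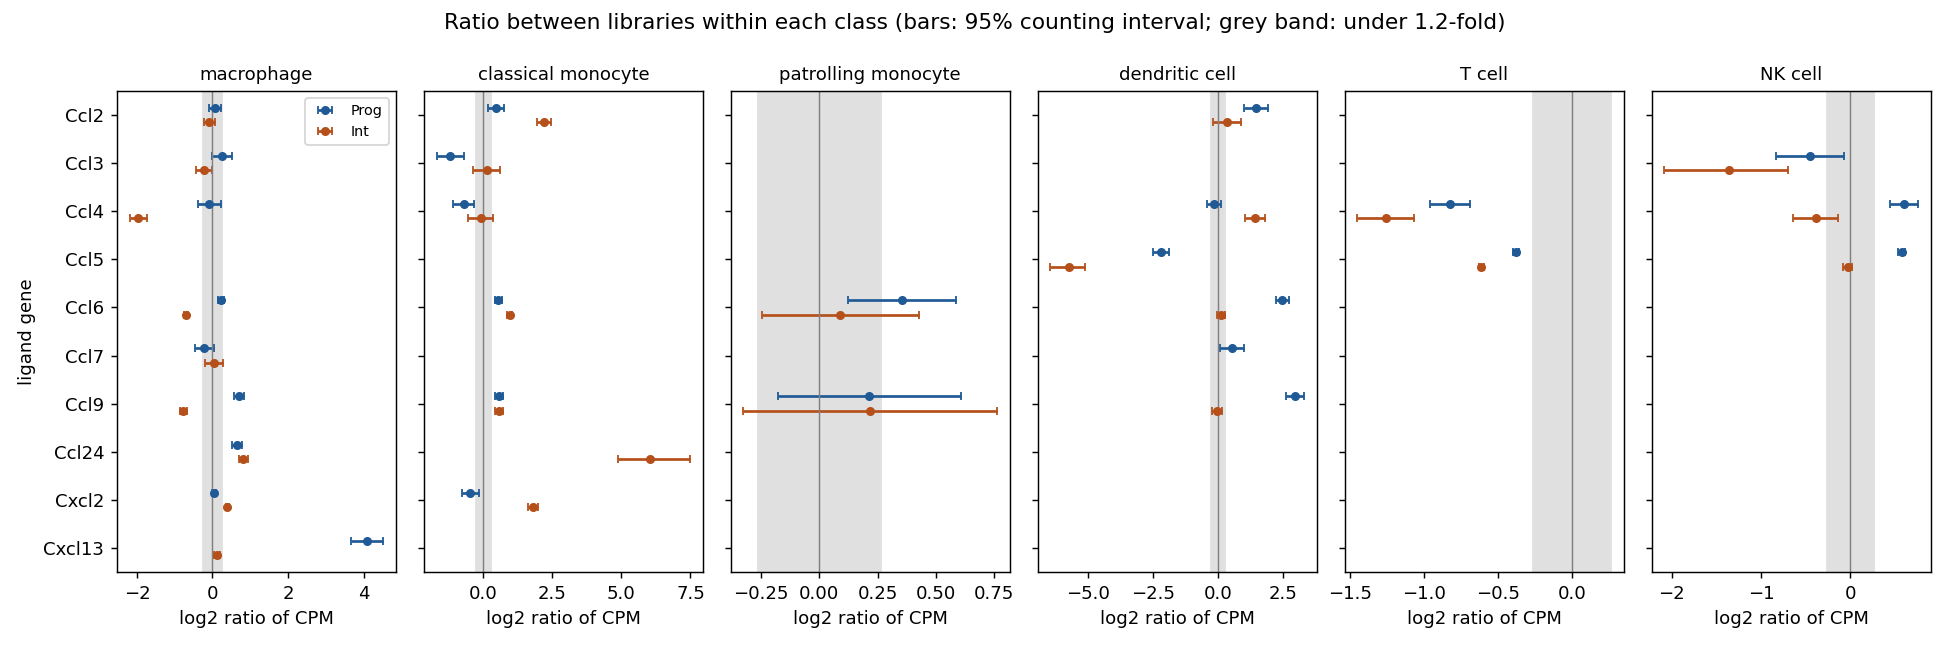
Log2 ratio of CPM for each ligand compared (rows) in 6 cell classes (panels, each with its own horizontal scale), for Prog (P-HC24 over P-LC24, blue) and Int (I-HC32 over I-LC32, orange), with 95% counting intervals; the grey band holds ratios under 1.2-fold. In macrophages 10 of 18 points lie in the band, and the points farthest from 0 are Cxcl13 in Prog at 4.08 and Ccl4 in Int at -1.97.

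Ccl2 and Ccl7, the Ccr2 ligands, had similar levels in the macrophages of all 4 libraries. Ccl2 was at 245 CPM in P-LC24 against 257 in P-HC24, and 275 in I-LC32 against 260 in I-HC32. Ccl7 was at 113, 97.6, 102 and 105 CPM. Neither pair of libraries differed by 1.2-fold, with log2 ratios for Ccl2 of 0.07 (-0.10 to 0.24) in Prog and -0.08 (-0.22 to 0.06) in Int, and for Ccl7 of -0.21 (-0.46 to 0.04) and 0.04 (-0.19 to 0.27). In macrophages with a Gata6 UMI, the ratios of Ccl2 were -0.26 and -0.37 and those of Ccl7 -0.44 and -0.34, all lower in the HC library and all but the first past 1.2-fold. As the mean of single-cell CPM the Prog ratios were 0.43 for Ccl2 and 0.28 for Ccl7, in the other direction.

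Over all kept cells the levels of both genes differed several-fold. Ccl2 was at 16.3 CPM in P-LC24 against 66.4 in P-HC24, and 16.5 in I-LC32 against 62.6 in I-HC32, and Ccl7 at 7.11, 25.1, 4.39 and 26.3 CPM. Both HC libraries lay above both of the others. Macrophages held 53.1%, 60.6%, 49.0% and 71.1% of the Ccl2 UMIs, and the level within them differed by less than 1.2-fold in each pair.

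Classical monocytes differed in Ccl2. It was at 146 CPM in P-LC24 against 198 in P-HC24, and 109 in I-LC32 against 503 in I-HC32, so that I-HC32 stood apart. Its log2 ratio was 0.44 (0.16 to 0.74) in Prog and 2.21 (1.96 to 2.46) in Int. In P-LC24 a single cell held 54.8% of the Ccl2 UMIs, and with the top cell of each library left out the ratio was 1.33 in Prog and 1.90 in Int. When cells with markers of other classes were kept, the Int ratio was 1.23. The 49 classical monocytes of I-HC32 also differed in their markers. Ly6c2, a gate gene, had a UMI in 63.3% of them, against 87.7%, 89.4% and 91.9% in the other libraries, and the 5 gate genes summed to 2608 CPM against 4039, 4268 and 4114. The part of this in the ligand ratios was not tested.

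Dendritic cells also differed in Ccl2, at 79.1 CPM in P-LC24 against 214 in P-HC24, and 57.9 in I-LC32 against 73.5 in I-HC32, with P-HC24 above the rest. The log2 ratio was 1.43 (0.98 to 1.90) in Prog and lay between 1.38 and 1.83 under the alternatives run. In Int it was 0.34 (-0.18 to 0.87), an interval that takes in 0, and -0.08 as the mean of single-cell CPM.

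A small class outside the gates of the comparison carried much Ccl2 and Ccl7. The Mcpt4 cells, gated on mast cell protease genes and on Ms4a2, Fcer1a and Gata2, numbered 1, 14, 1 and 14. In the 14 cells of P-HC24 Ccl2 was at 9646 CPM and Ccl7 at 3765, and in those of I-HC32 at 8022 and 9412. Ccl2 had a UMI in 14 of 14 cells in both libraries. These cells held 12.3% of the Ccl2 UMIs of P-HC24 and 6.36% of those of I-HC32, and 12.7% and 17.8% of the Ccl7 UMIs. With 1 cell in each of the other libraries, no level could be set beside these.

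Cxcl2, the neutrophil-drawing ligand, was the most abundant of the 10 in macrophages. It was at 3219 CPM in P-LC24 against 3306 in P-HC24, and 2859 in I-LC32 against 3745 in I-HC32. The log2 ratio was 0.04 (-0.01 to 0.08) in Prog and 0.39 (0.35 to 0.43) in Int, or 1.31-fold. The pair thus differed by less than 1.2-fold in Prog and by more in Int. The Int ratio was under 1.2-fold as mean UMIs per cell, at 0.22, and among macrophages with Gata6, where the ratios were -0.29 and 0.21, and among those without Gata6 in P-LC24, 26 cells, Cxcl2 was at 721 CPM against 3079, 1738 and 3347 in the other libraries. The split by Gata6 UMIs goes with depth, as these 26 cells had a median of 13762 UMIs against 29497 in the macrophages of P-LC24 with Gata6, so they may still express it.

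The share of macrophages with a Cxcl2 UMI was lower in P-LC24 than elsewhere. After thinning each cell to 3000 UMIs it was 65.5% in P-LC24 against 89.5% in P-HC24, and 86.5% in I-LC32 against 92.0% in I-HC32. Unthinned it was 66.7%, 93.6%, 89.3% and 95.4%. B cells, which are not a source of Cxcl2 and here measure free RNA, had a UMI in 0.529%, 2.39%, 0.55% and 4.99% when thinned, and in 0.995%, 6.73%, 1.22% and 12.05% unthinned. The B cell share was highest in the libraries with most macrophages, and far below that in macrophages in each library.

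Over all kept cells Cxcl2 was at 139 CPM in P-LC24 against 616 in P-HC24, and 125 in I-LC32 against 707 in I-HC32, which is 4.42-fold higher in Prog and 5.65-fold higher in Int. Macrophages held 81.4%, 83.9%, 67.1% and 90.6% of the UMIs. The difference over all cells was thus far larger than that within macrophages, where the ratios were 1.03-fold and 1.31-fold. In classical monocytes Cxcl2 was at 168, 122, 211 and 735 CPM, with log2 ratios of -0.47 (-0.78 to -0.16) and 1.80 (1.61 to 1.99). The Prog ratio turned to 1.71 when cells with markers of other classes were kept. In neutrophils, which carry its receptor, Cxcl2 was at 973, 1876, 1452 and 1357 CPM.

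**Figure D3:**
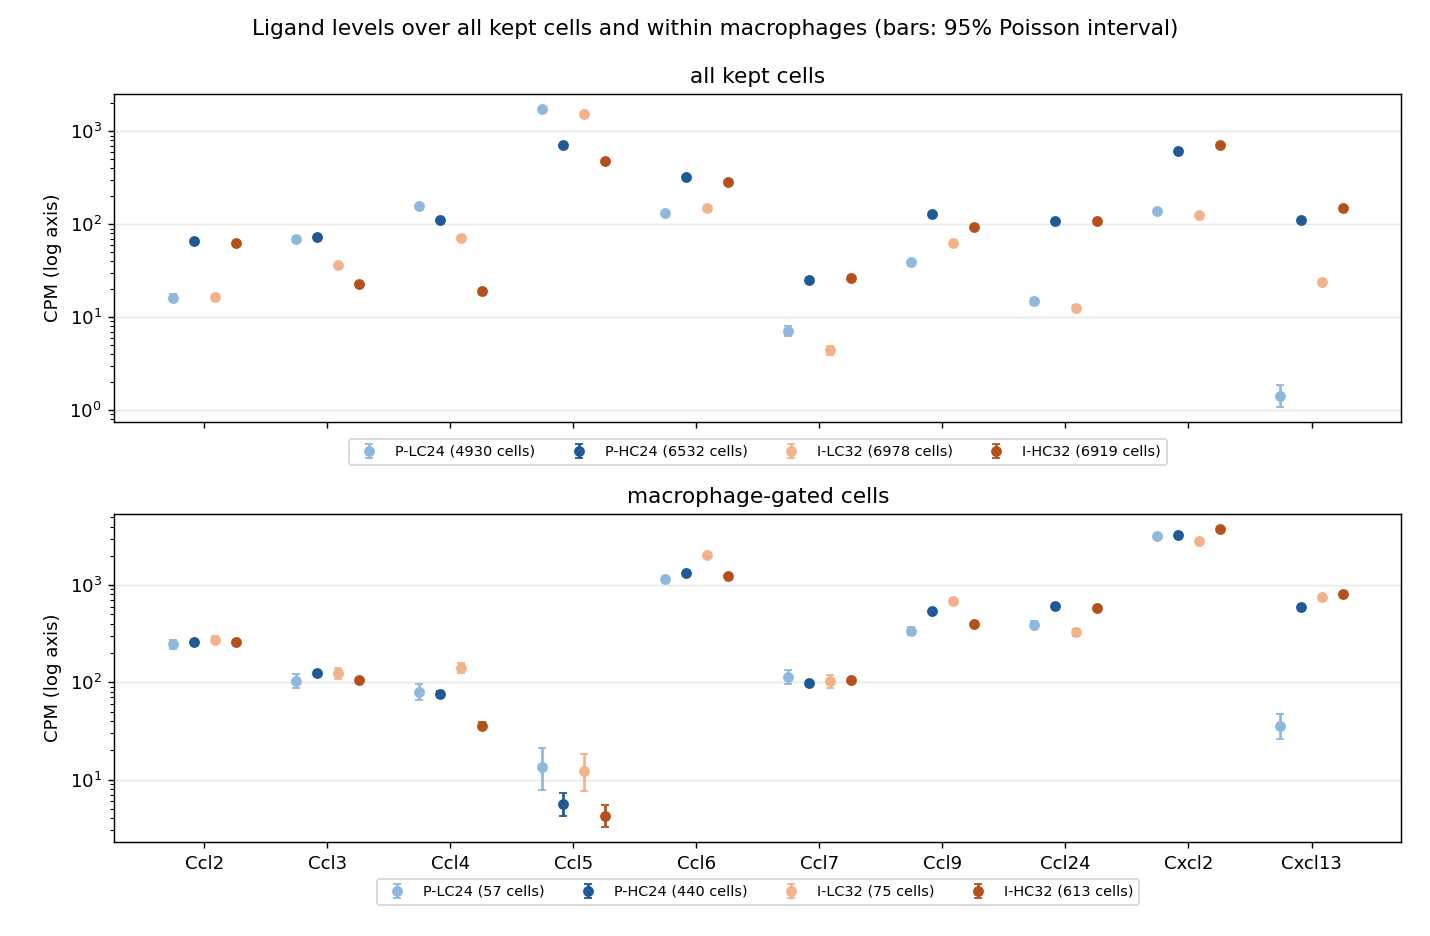
CPM of each ligand (log axis) over all kept cells (upper panel) and within macrophages (lower panel), with 1 point per library and bars for the 95% Poisson interval of counting error. Cxcl2, Ccl24 and Ccl2 differ several-fold between libraries over all cells, and in macrophages Cxcl2 stays between 2859 and 3745 CPM.

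Ccl24, the eotaxin that acts on Ccr3, was found mostly in macrophages, which held 93.5%, 89.2%, 76.2% and 91.0% of its UMIs. It was at 392 CPM in P-LC24 against 616 in P-HC24, and 328 in I-LC32 against 579 in I-HC32, higher in both HC libraries. Ratios on the log2 scale were 0.65 (0.52 to 0.78) in Prog and 0.82 (0.70 to 0.94) in Int, or 1.57-fold and 1.77-fold. In macrophages with Gata6 the ratios were 0.30 and 1.10. The thinned share of macrophages with Ccl24 was 47.3%, 65.1%, 44.6% and 69.1%, against at most 0.676% in B cells. Over all cells Ccl24 was at 14.8, 108, 12.6 and 109 CPM, 8.63-fold higher in Int.

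Ccl24 in classical monocytes rested on few cells. It had 23, 29, 6 and 156 UMIs, at 20.2, 22.6, 3.19 and 207 CPM, and the Int log2 ratio was 6.02 (4.87 to 7.49), which was 1.94 when cells with markers of other classes were kept. In I-HC32 the UMIs lay in 9 of 49 cells, and the top 10% of cells held 91.0% of them. Its receptor gene Ccr3 had only 14, 6, 18 and 6 UMIs over all kept cells.

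Cxcl13, the B cell attractant, showed the widest range of any member in macrophages. It was at 35.5 CPM in P-LC24 against 600 in P-HC24, and 758 in I-LC32 against 817 in I-HC32, with P-LC24 alone far below. On the log2 scale the ratio was 4.08 (3.67 to 4.52) in Prog, or 16.9-fold, and 0.11 (0.03 to 0.19) in Int. In summed UMIs I-LC32 thus lay near the HC libraries, but a few cells held much of its Cxcl13. After thinning, its top cells held 47 and 45 UMIs, and the next of its 74 cells held 14. The share of macrophages with a UMI, given below, was lower in I-LC32 than in both HC libraries. With only macrophages that had a Gata6 UMI, Cxcl13 was at 48.9, 699, 1033 and 827 CPM, with ratios of 3.84 and -0.32.

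Cxcl13 UMIs were unevenly spread over macrophages. A UMI was found in 8 of 57 cells of P-LC24 and in 47.7%, 33.3% and 47.0% of those of the other libraries, and after thinning the shares were 5.45%, 34.9%, 20.3% and 33.7%. In B cells the share was at most 2.56%, and at most 0.937% after thinning. A macrophage without a UMI may still express the gene. The top 10% of macrophages held 66.2% of the Cxcl13 UMIs in P-HC24, and 87.9% in I-LC32 against 74.5% in I-HC32. In I-LC32 a single cell held 34.9% of them, and without the top cell of each library the Int ratio was 0.63. Cxcl13 was at 0 in classical monocytes of P-LC24, P-HC24 and I-LC32. Its receptor gene Cxcr5 was at 196, 177, 213 and 288 CPM in B cells, the largest class.

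**Figure D4:**
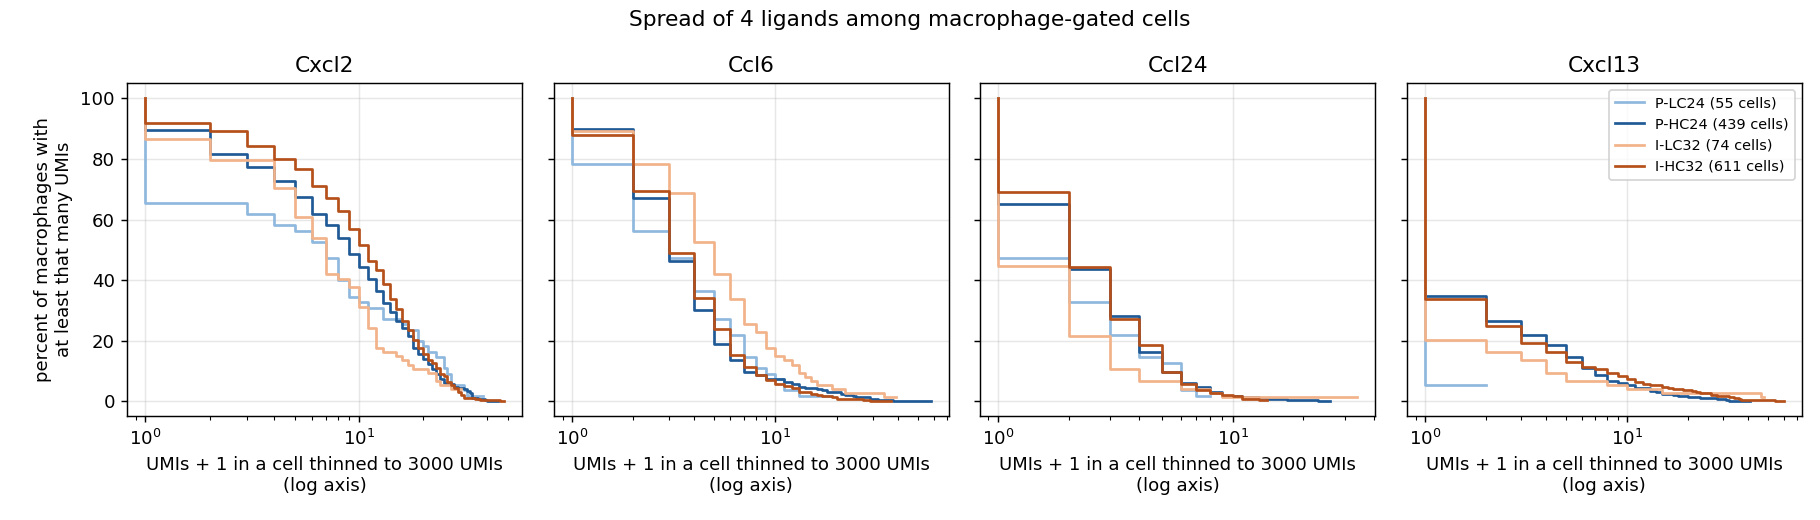
Percent of macrophages (vertical axis) with at least a given number of UMIs of Cxcl2, Ccl6, Ccl24 or Cxcl13 (panels; UMIs + 1 on a log axis) after each cell was thinned to 3000 UMIs, with 1 line per library. Most macrophages carry Cxcl2 and Ccl6, while at most 34.9% have a UMI of Cxcl13.

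Ccl6 and Ccl9, neighbouring genes whose products act on Ccr1, were the most abundant ligands of monocytes. Ccl6 in macrophages was at 1151 CPM in P-LC24 against 1340 in P-HC24, and 2017 in I-LC32 against 1236 in I-HC32. Ccl9 was at 335, 543, 680 and 399 CPM. I-LC32 was the highest library for both. A few cells held much of this, as the top 8 of its 75 macrophages had 50.5% of the Ccl6 and 52.6% of the Ccl9 UMIs, while the median macrophage held 20, 17, 19 and 18 UMIs of Ccl6 and 7, 8, 8 and 6 of Ccl9. Without the top cell of each library the Int ratios given next were -0.58 for Ccl6 and -0.57 for Ccl9. The log2 ratio of Ccl6 was 0.22 (0.14 to 0.30) in Prog and -0.71 (-0.76 to -0.65) in Int, and that of Ccl9 was 0.70 (0.56 to 0.84) and -0.77 (-0.86 to -0.68). In macrophages Ccl9 was therefore higher in the HC library at week 24, on 1.25% cholesterol. It was lower in that of week 32, after 8 weeks on 0.05%. From week 24 to week 32, Ccl9 went from 335 to 680 CPM in the LC libraries, on 0.05% throughout. In the HC libraries it went from 543 to 399 CPM. With Gata6 required, Ccl9 gave 0.38 and -0.68, and Ccl6 gave -0.26 and -0.69.

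In classical monocytes both were higher in the HC libraries at both times. Ccl6 was at 872, 1270, 1268 and 2466 CPM, with log2 ratios of 0.54 and 0.96, the first 1.36 when cells with markers of other classes were kept, and Ccl9 at 469, 695, 627 and 923 CPM, with 0.57 and 0.56. In patrolling monocytes Ccl6 was at 538, 687, 593 and 631 CPM and Ccl9 at 203, 236, 225 and 262 CPM, and 1 of the 4 ratios passed 1.2-fold, Ccl6 in Prog at 0.35 (0.12 to 0.59), which was -0.11 as mean UMIs per cell. In neutrophils Ccl6 was at 2496, 2554, 2593 and 1229 CPM. Ccl9 was at no more than 2.07 CPM there, so the neighbours were not both present in every myeloid class.

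Dendritic cells gave the widest Prog differences for this pair. Ccl6 was at 227 CPM in P-LC24 against 1253 in P-HC24, and 656 in I-LC32 against 707 in I-HC32, and Ccl9 at 107, 817, 427 and 414 CPM, with P-LC24 the lowest and P-HC24 the highest for both. The Prog log2 ratio was 2.47 (2.23 to 2.72) for Ccl6 and 2.94 (2.59 to 3.30) for Ccl9, and the Int ratios were 0.11 and -0.04. The dendritic cells differed in makeup between the libraries. Cd209a had a UMI in 42.2%, 82.4%, 68.7% and 80.8% of them, Xcr1 in 24.4%, 8.82%, 8.96% and 9.62%, and Siglech, a plasmacytoid marker, in 24.4%, 2.94%, 5.97% and 3.85%. Types of dendritic cell and ligand level within a type were not told apart.

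Ccl3, Ccl4 and Ccl5, which draw T cells, NK cells and monocytes, differed in where they were found. T and NK cells held most of Ccl5, while the largest share of Ccl3 was in Ms4a2 cells, gated on mast cell and basophil genes, in 3 libraries and in macrophages, with 78.7%, in I-HC32. That gate was redrawn after ungated cells high in Ccl3 and Ccl4 were seen, so its choice helped to set this share. T cells held 69.5%, 75.2%, 83.6% and 83.9% of the Ccl5 UMIs, and NK cells 26.0%, 17.6%, 9.72% and 10.7%. In T cells Ccl5 was at 5334 CPM in P-LC24 against 4098 in P-HC24, and 6859 in I-LC32 against 4487 in I-HC32, lower in the HC library of each pair. The log2 ratio was -0.38 (-0.40 to -0.36) in Prog and -0.61 (-0.63 to -0.59) in Int. Relative to the median gene of T cells, which itself was at -0.23 in Prog, the Prog ratio was -0.15 and under 1.2-fold. In CD8 T cells the levels were 6411, 4465, 9144 and 8251 CPM and the ratios -0.52 and -0.15, so the Int ratio was under 1.2-fold there. In T cells with Cd4 and no CD8 UMI, Ccl5 was at 919, 1162, 1796 and 1303 CPM, with 0.34 (0.21 to 0.47) in Prog and -0.46 (-0.54 to -0.39) in Int. In T cells with no UMI of Cd4 or CD8 genes it was at 4502, 4281, 4598 and 2619 CPM, with -0.07 (-0.12 to -0.03) in Prog and -0.81 (-0.86 to -0.77) in Int, the lowest Int ratio of the 3 subsets. CD8 T cells were 630 of 987, 615 of 1037, 815 of 1517 and 352 of 974 T cells, the smallest share being that of I-HC32.

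In NK cells Ccl5 was at 11542 CPM in P-LC24 against 17206 in P-HC24, and 10755 in I-LC32 against 10523 in I-HC32, with P-HC24 alone above the rest. Log2 ratios were 0.58 (0.54 to 0.61) in Prog and -0.03 (-0.09 to 0.02) in Int. Ccl4 there was at 699, 1059, 615 and 471 CPM, with log2 ratios of 0.60 (0.44 to 0.75) and -0.38 (-0.64 to -0.13), and Ccl3 was at 212, 155, 151 and 58.9 CPM, with -0.45 and -1.36. As mean UMIs per cell, the Prog ratios of Ccl5 and Ccl4 were 0.23 and 0.25, both under 1.2-fold. Haemoglobin and other erythroid genes, the mark of red cell RNA, summed to 4136, 740, 13490 and 177 CPM in the NK cells. Their part in the ratios was not tested.

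In T cells Ccl4 was at 145, 82.0, 97.1 and 40.6 CPM, again lower in the HC library of each pair, with log2 ratios of -0.82 (-0.96 to -0.69) and -1.26 (-1.45 to -1.07). A single cell held 39.2% of the Ccl4 UMIs of the P-HC24 T cells. The Prog ratio was -1.38 without the top cell of each library and -0.37 with the mitochondrial limit at 5%. By subset, the ratios were -0.79 and -0.89 in CD8 T cells, and -1.29 and -1.38 in those with no UMI of Cd4 or CD8 genes. T cells with Cd4 and no CD8 UMI went the other way, with 0.16 (-1.12 to 1.41) in Prog and 2.22 (1.02 to 3.64) in Int. Their Int ratio rested on 7 UMIs in I-LC32 and 33 in I-HC32.

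In classical monocytes Ccl3 was at 96.5, 42.1, 63.7 and 69.2 CPM, highest in P-LC24, with log2 ratios of -1.20 (-1.69 to -0.71) in Prog, or -0.49 when cells with markers of other classes were kept, and 0.12 (-0.38 to 0.60) in Int. Ccl4 in dendritic cells was at 385, 345, 80.2 and 212 CPM, higher at week 24 than at week 32, with -0.16 (-0.43 to 0.11) in Prog and 1.40 (1.03 to 1.79) in Int. In I-HC32 a single dendritic cell held 42.5% of its UMIs. The Int ratio was 0.81 when cells with markers of other classes were kept. In macrophages Ccl3 was at 103, 123, 123 and 105 CPM and differed by less than 1.2-fold in both phases, at 0.25 and -0.23. The Prog ratio of Ccl3 was 0.47 relative to the median gene and -0.07 as the mean of single-cell CPM. Its Int ratio was -0.76 by that mean and 0.13 with only Gata6-carrying macrophages. Ccl4 was at 79.8, 75.2, 140 and 35.9 CPM in macrophages, with -0.09 (-0.38 to 0.22) in Prog and -1.97 (-2.19 to -1.74) in Int. The Int ratio was -2.90 as the mean of single-cell CPM and -1.17 with only Gata6-carrying macrophages. In these the Prog ratio of Ccl4 was 1.45, and a single cell held 36.9% of the Ccl4 UMIs of those in P-HC24. Those of P-LC24 held 21.4 CPM against 235 CPM in the macrophages without Gata6.

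Dendritic cells carried Ccl5 unevenly. It was at 780 CPM in P-LC24 against 172 in P-HC24, and 1338 in I-LC32 against 24.9 in I-HC32, higher in both LC libraries, with log2 ratios of -2.19 (-2.51 to -1.87) and -5.75 (-6.44 to -5.13). In P-LC24 a single cell held 74.0% of the UMIs, and in I-LC32 the top 10% of cells held 94.1%. Of 67 cells in I-LC32, 9 had at least 10 Ccl5 UMIs. Ccr7, a receptor of migratory dendritic cells, was at 111, 45.5, 351 and 32.0 CPM, in the same order of libraries. Whether these were the same cells was not tested.

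Cells gated on Ms4a2 and other mast cell and basophil genes held the largest share of Ccl3 and of Ccl4 in 3 libraries. This gate was redrawn after ungated cells high in both ligands were seen to carry its genes, so the shares are a description that the choice of gate helped to set. They numbered 14 in P-LC24 against 15 in P-HC24, and 23 in I-LC32 against 1 in I-HC32, between 0.0145% and 0.33% of kept cells. Ccl3 was at 17584, 27153, 12002 and 6431 CPM in them, and Ccl4 at 28165, 40755, 16281 and 17363 CPM. Per cell, the median was 116.5, 165, 51 and 50 UMIs of Ccl3, the last from the single cell. They held 55.4%, 47.5%, 56.0% and 2.84% of the Ccl3 UMIs and 39.3%, 47.2%, 39.1% and 9.24% of the Ccl4 UMIs of their libraries.

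Mcpt8, which defines basophils, had a UMI in 64.3%, 86.7% and 69.6% of the Ms4a2 cells of P-LC24, P-HC24 and I-LC32. With marker UMIs 2 times as many required, 12, 12, 18 and 1 cells remained, and Ccl3 was at 17740, 26852, 11743 and 6431 CPM. The Ms4a2 cells also held erythroid UMIs, 88460, 38302, 7175 and 257 CPM. Over all kept cells Ccl3 was at 70.2, 73.2, 36.8 and 22.9 CPM and Ccl4 at 159, 111, 71.5 and 19.0 CPM, both lowest in I-HC32, the library with 1 Ms4a2 cell.

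**Figure D5:**
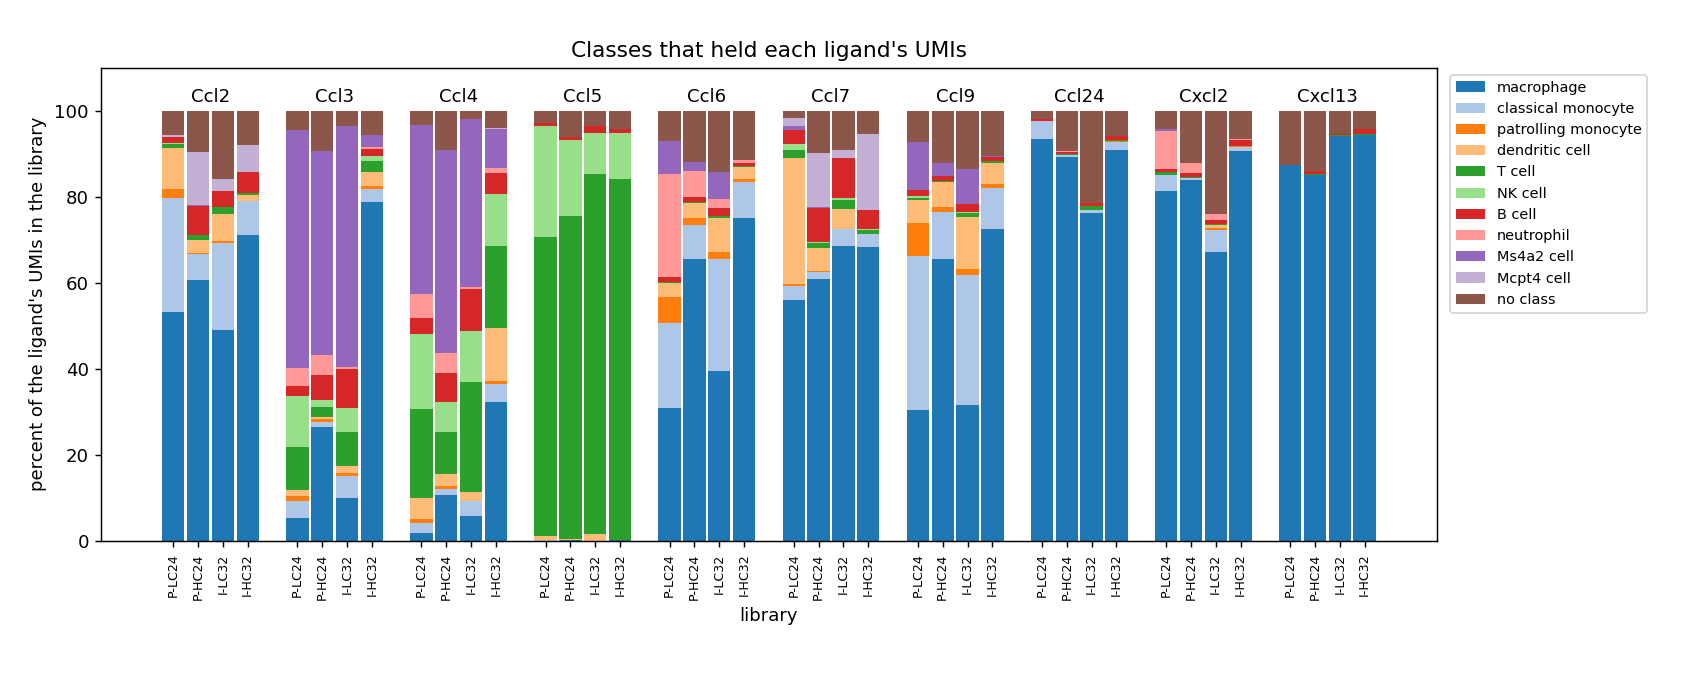
Percent of the UMIs of each ligand (vertical axis) held by each gated class (colours) or by cells of no class, with 1 stacked bar per library. Macrophages hold most Cxcl2, Ccl24 and Cxcl13, and T and NK cells most Ccl5. Ms4a2 cells, whose gate was redrawn after cells high in Ccl3 and Ccl4 were seen, hold a large share of both except in I-HC32.

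Receptors of the ligands were also read in other classes. Ccr2 was at 1059, 790, 890 and 850 CPM in classical monocytes and Cxcr2 at 1028, 1127, 1076 and 780 in neutrophils, where each was also one of the gate genes, and Ccr1 at 1006, 993, 519 and 780 in neutrophils. Of 23 receptor genes, 7 could be compared in macrophages in Prog, with 2 higher and 4 lower, and 6 in Int, with 2 higher and 3 lower. The share of all macrophage genes that were lower was 46.8% at week 24 and 36.6% at week 32, and that of genes higher was 16.2% and 14.2%. With so few receptors compared, their counts are a description and were not tested against these shares. Cx3cr1, the fractalkine receptor, had the lowest Prog ratio at -2.56, and Ccr2 the lowest Int ratio at -1.90.

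Of 26 other chemokine ligands, 6 could be compared in macrophages, with 2 higher and 1 lower in Prog and 1 higher and 2 lower in Int. Pf4, a platelet and macrophage chemokine, was the most abundant, with a mean of 2604 CPM and ratios of 0.04 and 0.37. Cxcl12, the ligand of Cxcr4, had the highest Prog ratio at 2.90 (1.02 to 5.97), from 1.48 to 11.1 CPM, the first from 2 UMIs. Of 16 genes of NF-kB feedback and inducible cytokines, 10 were higher and 0 lower in Prog, and 9 higher and 3 lower in Int, with a median log2 ratio of 0.41 and 0.39 against -0.22 and -0.14 over all genes compared. Among 12 immediate early genes, Prog gave 6 higher and 1 lower, and Int gave 10 higher and 0 lower, with medians of 0.35 and 0.53. Of 9 heat shock genes, 8 were compared in Prog with 3 higher and 4 lower, and 9 in Int with 6 higher and 0 lower, with medians of -0.15 and 0.45. The same shares of all genes apply to these lists and to the other ligands, and no list was tested. These genes also respond to tissue dissociation, and its part was not tested.

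Pairs of ligands differed in how far they were found in the same cells. In macrophages the Pearson r of thinned, log-transformed UMIs between Ccl6 and Ccl9 was 0.45, 0.39, 0.53 and 0.26, over 55, 439, 74 and 611 cells. For Ccl2 and Ccl7 it was 0.32, 0.57 and 0.28 in the last 3, and for Cxcl2 and Cxcl13 it was 0.08, 0.13 and -0.03. For Ccl3 and Ccl6, also next to each other in the list of members on chromosome 11, it was -0.03, -0.04, -0.03 and 0.05, and for Ccl24 and Cxcl2, far apart on chromosome 5, it was 0.58, 0.08, 0.02 and 0.12. In NK cells Ccl3 and Ccl4 gave 0.45, 0.43, 0.34 and 0.35. Cells of a library share mice and handling, so these are descriptions.

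Across the 7 classes and 4 libraries, or 28 points, the genes whose log2(CPM + 1) was most like a ligand were read by Pearson r among 14812 genes, and the points share libraries and classes. For Ccl2 these were Sdc3 (0.96), Cd33 and Cmtm3. For Ccl5 they were Cst7 (0.95), Heatr9 (0.95) and Tcf7, and Heatr9 lies 3.60 kb from Ccl5. For Ccl6 they were Cd68 (0.99), Alox5ap and Gda, and for Ccl9 Ifitm3 (0.97), Ifitm6 and Tgfbi. For Ccl24 they were Lrg1 (0.96), Saa3 and Glul, for Cxcl2 Ninj1 (0.94), Thbs1 and Gm13986, and for Cxcl13 Cxcl12 (0.96), Prtg and Alox15, a large peritoneal macrophage marker. The highest values for Ccl3, Ccl4 and Ccl7 were lower, with Itgb2 at 0.90, 1700025G04Rik at 0.86 and Gm32695 at 0.90.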

How the data were processed

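Each of the 4 libraries pooled FNA biopsies of 3 mice. The authors deposited whole UMI counts for each gene in each cell, from Cell Ranger 9.0.1 on GRCm39, and their SoupX and Seurat steps had not been applied to these counts. Cells were kept with 500 or more UMIs, at least 300 genes and at most 10% mitochondrial UMIs, and the top 0.8% per 1000 cells by Scrublet score (scanpy 1.11.5) were removed as doublets. Classes were gated on raw UMIs of marker genes (for macrophages at least 5 UMIs over at least 3 of C1qa, C1qb, C1qc, Vsig4, Timd4 and Cd5l). Each class excluded markers of some other classes, not of all, and cells still in several classes were left out. Macrophages excluded B and T cell markers, and dendritic cells these and the macrophage gate, so cells with monocyte markers could stay in both. Ccr2, a classical monocyte gate gene, was at 143, 85.3, 163 and 43.6 CPM in macrophages. In dendritic cells it was at 492, 539, 551 and 434 CPM. Gate limits were set after marker UMIs had been seen, and the Ms4a2 gate was redrawn after ungated cells high in Ccl3 and Ccl4 were seen to carry its genes.

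Summed counts were scaled to CPM with exact Poisson intervals (confidence level 95%), and ratios between libraries were given exact conditional intervals, checked on simulated data. Classes needed at least 30 cells in both libraries. Conditions were not tested against each other, because each is 1 library and cells are not replicates. All 10 members are named, and of other lists the most abundant member and those with the highest and lowest ratio; a few genes were named after their values were seen (Ccr7, Cx3cr1 and receptors of the members). The members and lists were chosen with earlier results of these data known. Alternatives concerned the filters, gates, scaling, free RNA, the fold and single cells. The Gata6 macrophages, CD8 T cells and unshared barcodes were added as alternatives after seeing the data. The software was matplotlib 3.10.9, pandas 2.3.3, scipy 1.17.1 and numpy 2.4.6 under Python 3.11.15.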

Additional observations from a re-analysis of the deposited data

Results flagged for a closer look

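Opposite directions at the 2 times were found for 3 ligands in a class. The log2 ratio of Ccl4 in NK cells was 0.60 in Prog and -0.38 in Int, that of Ccl9 in macrophages was 0.70 and -0.77, and that of Cxcl2 in classical monocytes was -0.47 and 1.80. As mean UMIs per cell the Prog ratio of Ccl4 was 0.25, under 1.2-fold, and with markers of other classes ignored that of Cxcl2 was 1.71. Each is 1 library against 1, and the difference was not tested.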

How the results depend on the processing

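Of 56 ratios of a ligand in a class, 37 were at least 1.2-fold, and 28 of these stayed so in the same direction under all alternatives run, while 9 did not. Of the 9, 3 changed sign. The Prog log2 ratio of Cxcl2 in classical monocytes was 1.71 with markers of other classes ignored, that of Ccl6 in patrolling monocytes was -0.11 as mean UMIs per cell, and the Int ratio of Ccl2 in dendritic cells was -0.0815 as the mean of single-cell CPM; the cause was not tested. The other 6 fell under 1.2-fold, 5 of them as given beside the results, and Ccl7 in dendritic cells in Prog at 0.14 instead of 0.53 with markers of other classes ignored. Of the 19 ratios under 1.2-fold, 16 passed it under an alternative, and 6 passed it in both directions, as Ccl4 in macrophages in Prog, from -0.85 as the mean of single-cell CPM to 1.45 with Gata6. With markers of other classes ignored, 16 of 36 pairs were higher in Int instead of 9 of 28, beside 17.3% of all pairs of gene and class in both, and the Int ratio of Ccl24 in classical monocytes was 1.94. At 2-fold, 4 of 28 pairs were higher and 2 lower in Prog, beside 1.04% and 3.75% of all pairs, and 4 higher and 4 lower in Int, beside 1.18% and 1.68%. With 20 UMIs and no share of cells required, 22 of 43 pairs were higher in Prog, beside 20.8%, and in Int 19 were higher and 13 lower, beside 24.4% and 29.0%. Under the stricter gate, dendritic cells in Prog and patrolling monocytes in Int fell below 30 cells and gave no ratio. No paired analysis was possible because each condition has 1 library, and for the same reason no replicate could be left out. Classes of 31 to 149 cells limit the precision for monocytes and dendritic cells.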
